A study of Mus musculus with 30 samples.

Results

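The genes described here are Nfe2l2, which encodes the transcription factor NRF2, Keap1, which encodes its inhibitor, and 8 genes commonly read as NRF2 targets: Hmox1, Nqo1, Gclc, Gclm, Txnrd1, Srxn1, Gsr and Prdx1. They were listed by name and matched by Ensembl identifier and mouse symbol. All 10 were among the 55573 genes of the deposited table of CPM (read counts scaled to the library total), and all 10 were among the 12016 genes of the count table, which holds the genes with at least 1 CPM in 20 or more libraries.

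RNA came from 3T3-L1 cells, an established mouse preadipocyte line that can be induced to become fat cells in culture. While still below confluence, on day −3 of the differentiation schedule, the cells received 50 nM of either a pool of siRNAs against Kdm5c, which encodes a histone H3 demethylase, or a non-targeting siRNA, called scramble. Messenger RNA was sequenced from strand-specific libraries 24, 48 and 72 h after transfection, on day −2, day −1 and day 0, in 5 libraries for each of the 6 combinations of day and siRNA. The labels do not say that replicates were separate cultures, so a p-value here reflects how far these 30 libraries scatter, and that scatter may be technical. Every group was the same cell line and every group was transfected, so days in culture and time since transfection cannot be told apart. Because 1 pool was used against Kdm5c, lower Kdm5c and other actions of those siRNAs cannot be told apart either.

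NRF2 is a basic leucine zipper factor whose level is set largely by protein breakdown. KEAP1 hands NRF2 to a CUL3 ubiquitin ligase, and oxidants or electrophiles that modify KEAP1 let NRF2 build up, enter the nucleus and, paired with a small MAF protein, bind antioxidant response elements near its targets. Those targets detoxify quinones and heme, make glutathione and keep glutathione, thioredoxin and the peroxiredoxins reduced. Only RNA was measured here, so neither the amount of NRF2 protein nor its binding was read.

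Short stretches of promoter are shown because NRF2 acts on its targets through antioxidant response elements. RefSeq start-site windows (GRCm38.p6, 250 bases before the start to 50 after it) were available for 7 of the 10 genes, in 9 windows, and Hmox1, Gclc and Gsr were not matched. The core letters of the element, TGACNNNGC, were searched on both strands. They occurred in windows of 5 of the 7 genes, against 14% of 27025 genes and 12.4% of 32851 windows in the whole table. Each sequence below reads 5′ to 3′ on the strand that holds the match, with the match in capitals.
Nfe2l2, chr2:75704885-75704913, minus strand, match at −240 to −232 from the start: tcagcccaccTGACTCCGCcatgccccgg
Gclm, chr3:122245413-122245441, minus strand, match at −134 to −126 from the start: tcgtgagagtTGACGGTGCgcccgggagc
Prdx1, chr4:116685456-116685484, minus strand, match at −133 to −125 from the start: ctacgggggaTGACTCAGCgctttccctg
Txnrd1, chr10:82859104-82859132, minus strand, match at −92 to −84 from an internal start: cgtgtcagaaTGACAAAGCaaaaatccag

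Positions count from the start. The match of the fifth gene, Srxn1, began 29 bases after its start. The search required C as the letter after TGA. The Srxn1 stretch at −45 printed below has G there, fits the other letters and was not counted. The Txnrd1 window lies inside the gene as annotated, ahead of an internal start. A match is only a match of letters and no measurement of binding. The same holds for the windows of Keap1 and Nqo1, in which these letters did not occur. Bases outside the windows were not searched, so an element farther from a start would be missed. AP-1 sites resemble the element and were searched as TGANTCA on both strands; they occurred in 2 of the 7 genes, Srxn1 and Prdx1, against 9.0% of all genes and 7.8% of all windows. Srxn1 held 2, shown because both lie close ahead of the start.
Srxn1, chr2:152105412-152105438, plus strand, match at −102 to −96 from the start: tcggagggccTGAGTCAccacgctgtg
Srxn1, chr2:152105469-152105495, plus strand, match at −45 to −39 from the start: aaattcacccTGAGTCAgcggccgggc

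One of the Prdx1 AP-1 matches, which starts 131 bases before the gene's start, overlaps the antioxidant response element match printed for that gene.

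The libraries held 25217905 to 33725717 reads, so 3 reads, the limit that a count of 0 allows, equal 0.089 to 0.119 CPM, a limit that covers counting error only. The lowest value of any of the 10 genes was 18 CPM, for Gclc in 1 day 0 scramble library, far above that limit. Of 9 preadipocyte or fibroblast markers, 8 averaged at least 1 CPM, and the 9 summed to 25300 to 34300 CPM. The adipocyte markers Adipoq, Plin1, Cidec and Lep averaged 0.0507 CPM or less, with Fabp4 at 9.73 to 35.1 CPM. The summed markers of macrophages or other blood cells were 2.6 to 9.12 CPM, those of endothelium 0.876 to 2.58, of epithelium 0 to 0.391 and of muscle 1.17 to 6.1, and Adgre1, Epcam and Myod1 were at 0 in all 30 libraries. A bulk measurement cannot tell fewer cells that express a gene from less of its RNA in each cell.

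Kdm5c itself averaged 157.1 ± 1.75 CPM with scramble and 25.5 ± 1.29 with Kdm5c siRNA on day −2 (SD, n = 5 libraries per group, as throughout). The siRNA left 16.2% of the scramble level on day −2, 18.9% on day −1 and 25.2% on day 0.

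Under scramble siRNA the 10 genes parted into different courses between day −2 and day 0. Transcripts of the glutathione and thioredoxin systems fell, most of all Txnrd1 and Gclc, while Nfe2l2 rose on each day. Nqo1 peaked on day −1. In the edgeR quasi-likelihood fit to all 12016 genes, 4 of the 10 rose and 6 fell from day −2 to day 0 at an adjusted p under 0.05. Most genes moved over those days: 88.2% of all genes passed the same test, so a count of 10 of 10 lies near the background. From day −2 to day −1, 3 rose and 6 fell, against 78.7% of all genes called, and from day −1 to day 0, 2 rose and 7 fell, against 74.4%. The median log2 fold change of the 10 from day −2 to day 0 was −0.37, and that of all genes 0.0037.

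Markers of other cell types moved over the same days. In the scramble libraries the summed macrophage or other blood cell markers lay at 5.03 to 7.44 CPM on day −2 and 2.6 to 3.39 on day 0. The adipocyte markers lay at 10.3 to 12.7 and then 22 to 28.8 CPM, the muscle markers at 1.28 to 1.84 and then 4.89 to 6.1, and the preadipocyte or fibroblast markers at 25300 to 26200 and then 31500 to 34300. The muscle sum was nearly all Des, since Myod1 was at 0 and Myog averaged 0.00358 CPM. Of the single markers, the macrophage receptor gene Csf1r fell by 2.26 and the fatty acid binding protein gene Fabp4 rose by 1.17 on the log2 scale, while Adipoq, Plin1, Cidec, Lep, Ptprc and Adgre1 were at or near 0. Cd68, the other macrophage marker that averaged at least 1 CPM, lay at 1.16 to 4.17 CPM over all libraries, and Csf1r at 0.89 to 7.48. These ranges give no direction over the days, so the fall of Csf1r is not carried over to Cd68. The siRNA effect on Cd68 was 0.68 higher on day 0 than on day −1 (SE 0.202, edgeR adjusted p = 0.0329). With Kdm5c siRNA on day 0 the macrophage or other blood cell markers summed to 3.93 to 5.7 CPM and the adipocyte markers to 28.7 to 35.5. The part of these markers in the results was not tested.

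**Figure D1:**
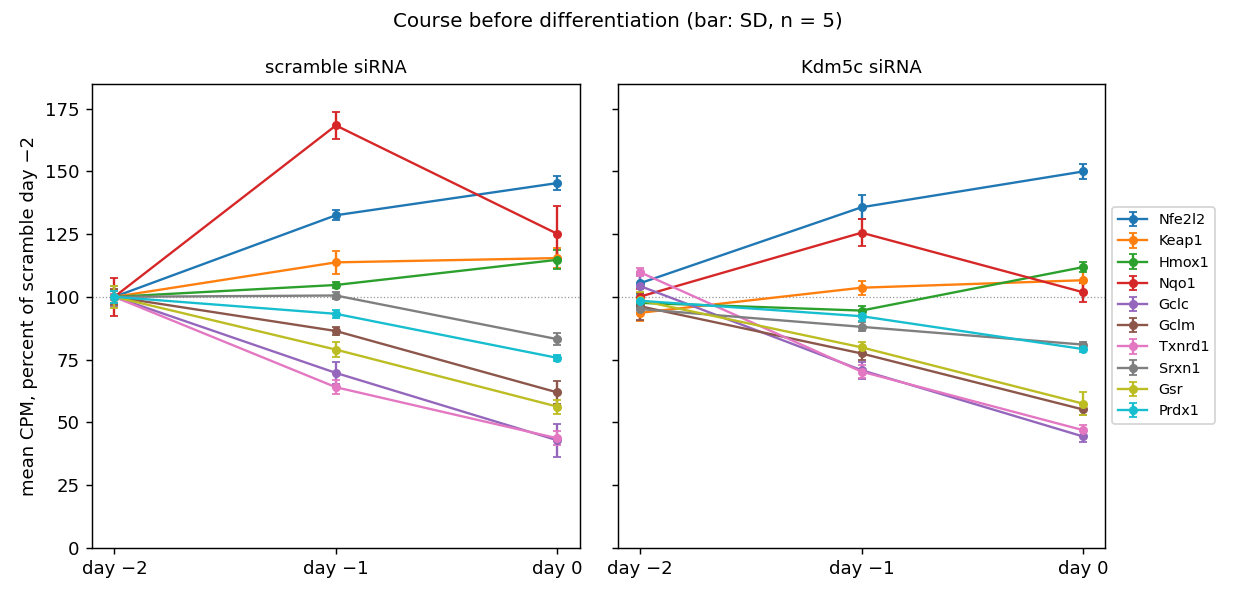
Mean CPM of each of the 10 genes on day −2, day −1 and day 0, as a percent of its mean in the day −2 scramble libraries (vertical axis, linear from 0), with scramble siRNA on the left and Kdm5c siRNA on the right; bars are the SD of 5 libraries on the same scale. Nqo1 stands at 168.4% on day −1 with scramble, Nfe2l2 climbs to 145.4% on day 0, and Gclc and Txnrd1 end at 42.8% and 43.6%.

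Nfe2l2 (ENSMUSG00000015839; GRCm38 chromosome 2, 75675513 to 75704641, minus strand) held 91.1, 90.0, 92.5, 90.8 and 91.3 CPM in the scramble libraries of day −2. On day −1 they held 120.9, 121.1, 118.6, 123.5 and 119.8 CPM, and on day 0 128.9, 134.9, 134.6, 131.1 and 133.2. The libraries of the 3 days did not overlap. Nfe2l2 rose by 0.33 on the log2 scale from day −2 to day −1 (SE 0.025, edgeR adjusted p = 6.52e-16) and by a further 0.17 to day 0 (SE 0.024, adjusted p = 5.32e-08), ending at 145.4% of its first level. With Kdm5c siRNA its mean went from 96.1 to 136.7 CPM, 142.3% of the first level. Percents between days are of mean CPM, scaled by library totals alone. The log2 changes come from the model with its own scaling of libraries, so percents and log2 changes can differ somewhat.

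Keap1 (ENSMUSG00000003308; chromosome 9, 21229730 to 21239361, minus strand) moved in the same direction as Nfe2l2, but less. Its scramble mean was 54.1 ± 1.44 CPM on day −2, 61.6 ± 2.54 on day −1 and 62.5 ± 2.14 on day 0. It rose by 0.11 to day −1 (SE 0.032, adjusted p = 0.00169), or by 0.19 with library totals alone (adjusted p = 1.92e-06); the further 0.06 to day 0 did not pass the test (SE 0.032, adjusted p = 0.106). That rise to day −1 lost its call when scramble libraries 1, 2 and 3 of day −1 were left out together (adjusted p = 0.0709), and the step to day 0 gained one without day −1 scramble replicate 2 (adjusted p = 0.0209). A predicted gene on the opposite strand, Gm16754, shares 510 bases of Keap1's exons, 10.9% of them, at a mean of 1.49 CPM.

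Nqo1 (ENSMUSG00000003849; chromosome 8, 107388225 to 107403206, minus strand) encodes a quinone reductase and is a much used reporter of NRF2 activity. The day −2 scramble libraries held 29.6, 26.6, 27.8, 25.5 and 24.3 CPM, those of day −1 held 46.4, 44.4, 46.7, 43.6 and 44.1, and those of day 0 held 35, 32.2, 37.3, 33.3 and 29.5. Every day −1 library lay above every library of the other days. Nqo1 rose by 0.68 to day −1 (SE 0.045, adjusted p = 2.26e-17) and then fell by 0.39 to day 0 (SE 0.044, adjusted p = 1.57e-10), which left it 0.28 above day −2 (SE 0.046, adjusted p = 4.6e-07). Of the 12016 genes, 13.9% had a larger absolute change than Nqo1 from day −2 to day −1. It was the one gene of the 10 with a called rise followed by a called fall.

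Hmox1 (ENSMUSG00000005413; chromosome 8, 75093621 to 75100589, plus strand) encodes heme oxygenase 1, which opens the heme ring and frees its iron. Its scramble mean was 253.9 ± 5.91 CPM on day −2, 265.9 ± 3.5 on day −1 and 291.4 ± 9.68 on day 0. Between day −2 and day −1 no change was called (log2 fold change −0.01, SE 0.024, adjusted p = 0.831), and the sign turned to 0.07 (adjusted p = 0.0111) when libraries were scaled by their totals alone. That scaling moved the median of all genes in this comparison from 0.000231 to 0.0731. From day −1 to day 0 Hmox1 rose by 0.17 (SE 0.024, adjusted p = 5.64e-08).

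The glutathione genes fell together. Gclc (ENSMUSG00000032350; chromosome 9, 77754535 to 77794485, plus strand) and Gclm (ENSMUSG00000028124; chromosome 3, 122245557 to 122270732, plus strand) encode the catalytic and modifier subunits of glutamate-cysteine ligase, the rate-limiting enzyme of glutathione synthesis. Gsr (ENSMUSG00000031584; chromosome 8, 33652523 to 33698163, plus strand) encodes glutathione reductase, which returns oxidised glutathione to its reduced form. Gclc held 49.7, 49.3, 53.7, 50.7 and 48.0 CPM on day −2 with scramble, 33.0, 32.9, 35, 37.7 and 36.5 on day −1, and 26.6, 18, 22.7, 19.1 and 21.3 on day 0. No library of one day overlapped another day. Gclc fell by 1.26 in all (SE 0.061, adjusted p = 5.93e-19), to 42.8% of its day −2 mean.

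Gclm fell less than its partner subunit, from 36.5 ± 1.13 to 31.5 ± 0.571 and then 22.6 ± 1.62 CPM, by 0.73 in all (SE 0.041, adjusted p = 1.55e-20). Gsr fell from 74.2 ± 3.23 to 58.6 ± 2.31 and then 41.7 ± 2.09 CPM, by 0.87 (SE 0.038, adjusted p = 6.28e-24). On day 0 Gclm stood at 61.9% and Gsr at 56.2% of day −2.

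Of the thioredoxin group, Txnrd1 (ENSMUSG00000020250; chromosome 10, 82833951 to 82897712, plus strand) encodes the selenoenzyme that reduces cytosolic thioredoxin. Its scramble libraries held 308.0, 314.9, 316.1, 318.0 and 311.1 CPM on day −2, 187.8, 200.6, 198.4, 209.6 and 206.4 on day −1, and 150.7, 131.0, 139.4, 132.0 and 130.2 on day 0. The 3 days did not overlap. Txnrd1 fell by 0.72 to day −1 (SE 0.03, adjusted p = 2.76e-22) and by 1.24 to day 0 (SE 0.031, adjusted p = 1.96e-30). Larger absolute changes over the whole course were found in 12.9% of all genes for Txnrd1 and in 12.3% for Gclc.

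Srxn1 and Prdx1 moved less. Prdx1 (ENSMUSG00000028691; chromosome 4, 116685544 to 116700822, plus strand) encodes an abundant thiol peroxidase that thioredoxin reduces, and Srxn1 (ENSMUSG00000032802; chromosome 2, 152105516 to 152111376, plus strand) encodes sulfiredoxin, which rescues peroxiredoxins that have been over-oxidised. Prdx1 fell from 347.1 ± 7.92 CPM on day −2 to 262.6 ± 3.99 on day 0, by 0.44 (SE 0.021, adjusted p = 7.16e-23). Srxn1 fell from 75.5 ± 1.82 to 62.8 ± 1.77 CPM, by 0.31 (SE 0.024, adjusted p = 3.57e-15). Most of that lay in the last day, a fall of 0.24 from 75.9 ± 1.01 CPM on day −1. The log2 change of Srxn1 to day −1 was −0.07 with the usual scaling (SE 0.024, adjusted p = 0.013) and 0.01 with library totals alone (adjusted p = 0.783).

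With Kdm5c siRNA the same members changed by small amounts, and the largest of them was the fall of Nqo1. Nqo1, Keap1, Gclm, Srxn1 and Hmox1 fell on at least 1 of the days, and Txnrd1 rose on every day. On day −2, 2 of the 10 rose and 2 fell, against 23% of all genes called in either direction. On day −1, 1 rose and 5 fell, against 35.5%, and on day 0, 2 rose and 3 fell, against 35%. The median log2 fold change of the 10 was −0.02, −0.07 and −0.00049 on the 3 days, beside 0.00035, 0.0024 and 0.0034 over all genes. On day −1 the 5 Kdm5c siRNA libraries lay wholly below the 5 scramble libraries for 5 of the 10 genes (Nqo1, Srxn1, Hmox1, Gclm and Keap1) and wholly above for 0. Over all genes, 22.3% did not overlap on that day. On day −2 this held for 2 of the 10, against 16.1% of all genes, and on day 0 for 3, against 21.7%.

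**Figure D2:**
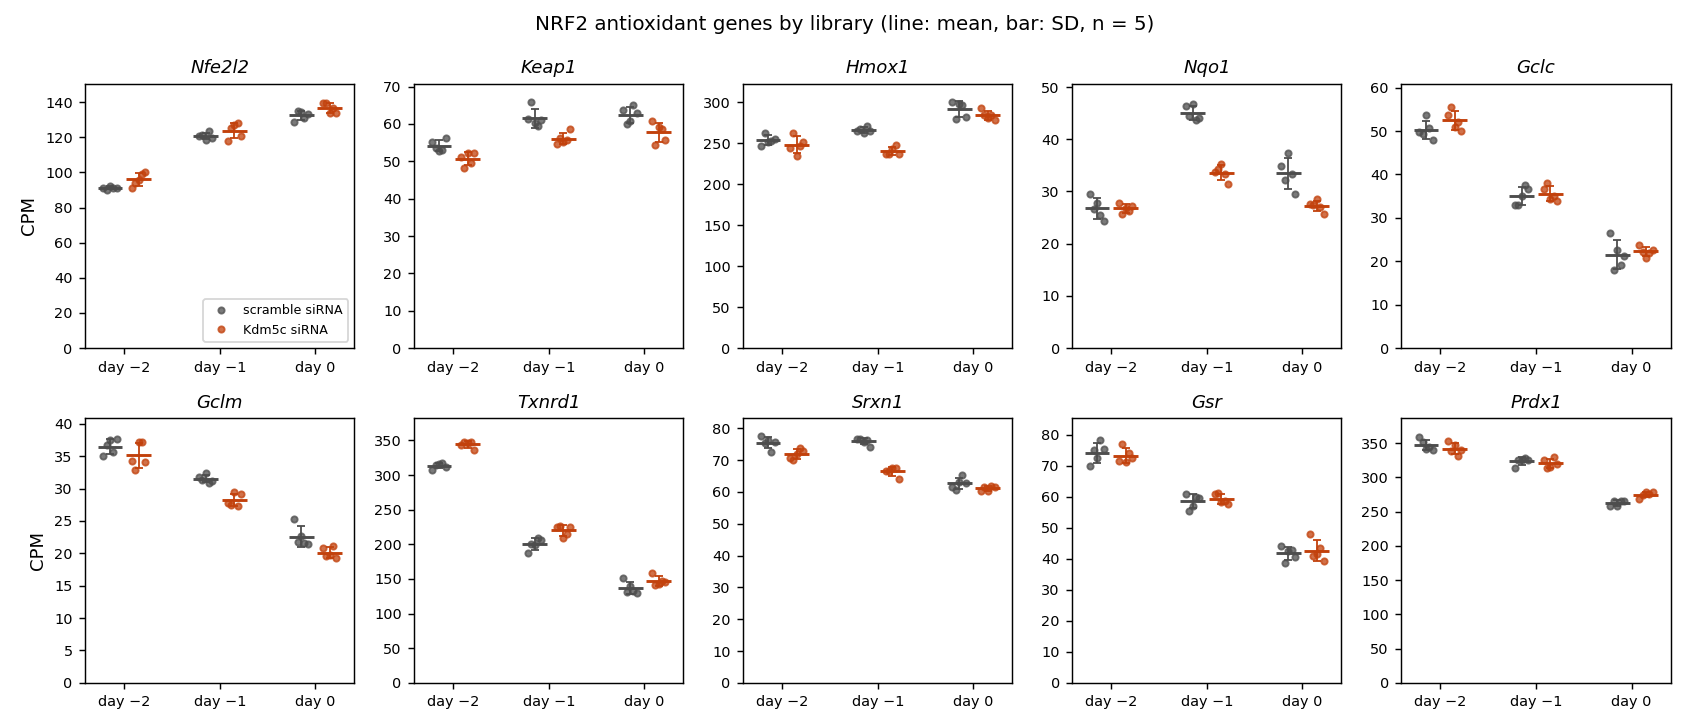
CPM of each of the 10 genes in the 30 libraries (vertical axes, linear from 0), by day; grey points are scramble and orange points Kdm5c siRNA libraries, horizontal lines are means and bars the SD of 5 libraries. The siRNAs part most clearly for Nqo1 on day −1, where the scramble libraries lie at 43.6 to 46.7 CPM and the Kdm5c siRNA libraries at 31.3 to 35.2.

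For Nqo1, the day −2 libraries with Kdm5c siRNA held 27.9, 25.7, 26.8, 26.3 and 27.2 CPM and lay within the range of the scramble libraries. On day −1 they held 33.8, 34.3, 35.2, 33.3 and 31.3 CPM, and on day 0 27.6, 27.4, 28.5, 27.1 and 25.7. All of them lay below all scramble libraries of the same day on both later days. No difference was called on day −2 (log2 fold change 0.00, SE 0.048, adjusted p = 0.967). Nqo1 fell by 0.42 on day −1 (SE 0.044, edgeR adjusted p = 2.92e-10), to 74.6% of scramble, and by 0.29 on day 0 (SE 0.047, adjusted p = 2.66e-06), to 81.4%. Larger absolute changes were found in 3.39% of all genes on day −1 and in 8.31% on day 0. With Kdm5c siRNA the mean of Nqo1 was 125.5% of its day −2 level on day −1, where scramble reached 168.4%, and 101.7% on day 0, where scramble stood at 125.1%. The scramble course and the day −1 siRNA comparison share the day −1 scramble libraries.

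On day −1 and day 0 the regulators differed by less than Nqo1 did. Nfe2l2 rose on day −2, from 91.1 ± 0.899 to 96.1 ± 3.7 CPM, a log2 change of 0.08 (SE 0.025, adjusted p = 0.0161). The Kdm5c siRNA libraries held 91.4, 93.8, 95.8, 99.2 and 100.3 CPM, the lowest of them inside the scramble range, and leaving out replicate 4 or replicate 5 of that group ended the call (adjusted p up to 0.0657). On day −1 and day 0 Nfe2l2 was 0.04 and 0.05 higher with Kdm5c siRNA, and neither passed the test (adjusted p = 0.247 and 0.123).

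Keap1 fell on each of the 3 days, to between 91.1% and 93.6% of scramble. On day −2 its scramble libraries held 55.1, 53.6, 52.8, 53.1 and 56.2 CPM and its Kdm5c siRNA libraries 51.1, 48.3, 52.1, 49.6 and 52.2. On day −1 the scramble libraries held 61.3, 65.9, 60.2, 59.3 and 61.1 CPM and the Kdm5c siRNA libraries 54.7, 56.2, 55.3, 55.8 and 58.6. The groups did not overlap on either of these days. On day 0 they did, with 63.7, 59.9, 60.8, 65.2 and 62.9 CPM against 60.8, 54.3, 59.2, 58.6 and 55.7. The log2 fold change was −0.09 on day −2 (SE 0.033, adjusted p = 0.039), −0.13 on day −1 (SE 0.032, adjusted p = 0.00121) and −0.11 on day 0 (SE 0.032, adjusted p = 0.00532). The day −2 call was lost in 7 of 20 alternative settings (adjusted p up to 0.121), and the day −1 call when day −1 scramble libraries 1, 2 and 3 were left out together (0.0756).

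Hmox1 fell on day −1. Its scramble libraries held 264.5, 266.8, 262.3, 271.5 and 264.5 CPM on that day and its Kdm5c siRNA libraries 236.6, 236.2, 242.9, 247.2 and 237.0, with no overlap. The fall was 0.15 on the log2 scale (SE 0.024, adjusted p = 4.97e-06), to 90.2% of scramble. On day −2 and day 0 the groups overlapped and the log2 fold changes of −0.03 and −0.03 did not pass the test (adjusted p = 0.403 and 0.281).

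Srxn1 was lowest against scramble on day −1 as well. On day −1 the scramble libraries held 76.6, 76.6, 75.7, 76.4 and 74.2 CPM and the Kdm5c siRNA libraries 66.6, 66.6, 67.5, 67.5 and 64.2, so that the groups lay well apart. The fall was 0.19 (SE 0.024, adjusted p = 3.51e-08), to 87.6% of scramble. On day −2 it was 0.07 (SE 0.024, adjusted p = 0.0369), a call lost in 9 of 20 alternative settings (adjusted p up to 0.248), and on day 0 the log2 fold change of −0.04 did not pass (adjusted p = 0.285). On that last day the groups overlapped, with 61.7, 60.7, 63.0, 65.4 and 62.9 CPM against 60.3, 61.6, 60.3, 62.0 and 61.4.

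Of the subunits of glutamate-cysteine ligase, Gclm fell by 0.16 on day −1 (SE 0.04, adjusted p = 0.00194) and by 0.17 on day 0 (SE 0.043, adjusted p = 0.00242), with no overlap on either day. Its day −1 libraries held 31.7, 31.4, 32.4, 30.9 and 31.2 CPM with scramble and 27.8, 27.5, 29.5, 27.3 and 29.1 with Kdm5c siRNA. On day 0 they held 25.3, 21.7, 22.7, 21.6 and 21.5 CPM with scramble and 20.9, 19.6, 19.7, 21.1 and 19.3 with Kdm5c siRNA. The day 0 gap between the groups was narrow, 21.5 against 21.1 CPM at its edges. Without day −1 scramble libraries 1, 2 and 3 the day −1 call was lost (adjusted p = 0.0682). Gclc overlapped on all days and its log2 fold changes of 0.07, 0.02 and 0.05 did not pass (adjusted p = 0.43, 0.8 and 0.581). It passed on day 0 without scramble replicate 1, whose 26.6 CPM was the highest of its group (0.14, adjusted p = 0.0404). The difference between the subunits was not tested. Gsr overlapped on all days as well, with log2 fold changes of −0.02, 0.02 and 0.03 (adjusted p from 0.557 to 0.808).

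Txnrd1 rose on each day with Kdm5c siRNA, to 109.8%, 109.7% and 107.5% of scramble. On day −2 the Kdm5c siRNA libraries held 343.3, 347.9, 346.5, 347.8 and 336.6 CPM, all above the highest scramble library at 318.0; on the later days the groups overlapped. Day −1 values were 224.7, 226.2, 208.8, 215.4 and 225.6 CPM with Kdm5c siRNA, of which 1 reached into the scramble range. The log2 fold change was 0.14 on day −2 (SE 0.03, adjusted p = 0.000578), 0.14 on day −1 (SE 0.031, adjusted p = 0.000539) and 0.11 on day 0 (SE 0.032, adjusted p = 0.00721). Leaving out day −1 scramble libraries 1, 2 and 3 ended the day −1 call and lowered its value to 0.08 (adjusted p = 0.126). Txnrd1 was the only one of the 10 that rose on all 3 days.

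Prdx1 rose on day 0, from 258.5, 265.4, 258.0, 266.1 and 265.0 CPM with scramble to 268.6, 273.5, 278.1, 275.1 and 278.8 with Kdm5c siRNA. The groups did not overlap, and the rise was 0.07 (SE 0.021, adjusted p = 0.00967), to 104.7% of scramble; with no filter on low counts the adjusted p was 0.063. On day −2 and day −1 the log2 fold changes were −0.02 and −0.01 (adjusted p = 0.579 and 0.672).

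**Figure D3:**
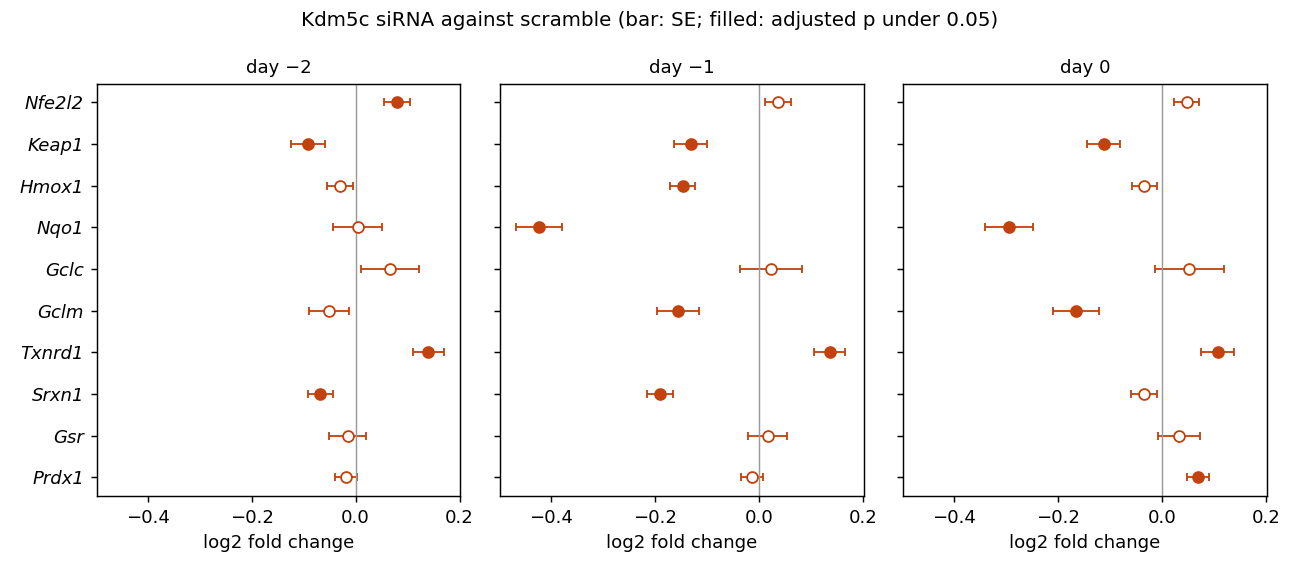
Log2 fold change of Kdm5c siRNA against scramble on each day for the 10 genes (horizontal axis), with the SE of the edgeR model as bars; filled points have an adjusted p under 0.05. Nqo1 moves from 0.00 on day −2 to −0.42 on day −1 and −0.29 on day 0, and Txnrd1 lies between 0.11 and 0.14 on the 3 days.

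Whether the siRNA effect differed between days was tested directly, as a difference of differences in the same model. For Nqo1 the effect moved down by 0.43 from day −2 to day −1 (SE 0.065, adjusted p = 3.24e-05) and was still 0.30 lower on day 0 than on day −2 (SE 0.067, adjusted p = 0.00135); the step of 0.13 from day −1 to day 0 did not pass (adjusted p = 0.27). Both calls held in all alternatives run. Srxn1 and Hmox1 moved down from day −2 to day −1, by 0.12 each (SE 0.034 and 0.034, adjusted p = 0.0347 and 0.0441), and back up from day −1 to day 0, by 0.15 and 0.11 (SE 0.035 and 0.034, adjusted p = 0.00359 and 0.0378). The Srxn1 call from day −2 to day −1 was lost in 11 of 32 alternatives, and the Hmox1 calls in 21 and 14 of 32. The effect on Prdx1 was 0.09 higher on day 0 than on day −2 (SE 0.03, adjusted p = 0.0403), a call lost in 13 of 30 alternatives, and the step of 0.08 from day −1 to day 0 did not pass (adjusted p = 0.101). These tests share libraries with the comparisons within days.

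In those tests, 3 of the 10 genes passed from day −2 to day −1, against 3.62% of all genes. From day −1 to day 0, 2 passed, against 5.94%, and from day −2 to day 0, 2 passed, against 15.6%. For Keap1, Txnrd1, Gclm, Gclc, Gsr and Nfe2l2 none of the 3 differences passed the test, with adjusted p-values from 0.191 to 0.98.

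Levels of different genes were compared per kilobase of annotated exon. Over the 6 group means the median was highest for Hmox1, at 148 CPM per kb, then Prdx1 at 106, Nfe2l2 at 32.2, Txnrd1 at 29.7, Srxn1 at 24.5, Gsr at 21.4, Nqo1 at 19.5, Keap1 at 12.1, Gclc at 9.37 and Gclm at 4.75. The highest and the lowest thus stood 31.2-fold apart. Over the 30 libraries the range of Hmox1 lay above that of Prdx1, Prdx1 above Nfe2l2 and Nqo1 above Keap1, and every other pair of neighbours overlapped. With the length of the longest transcript in place of all exons, Txnrd1 (58.1) came before Nfe2l2 (49.4) and the order was otherwise kept. The catalytic subunit gene Gclc lay above the modifier gene Gclm in each group mean, at 13.3 against 5.8 CPM per kb on day −2 and 5.71 against 3.59 on day 0 with scramble. Part of Gclm's exons, 296 bases against an opposite-strand predicted gene, Gm17494, and 244 bases with a same-strand one, Gm6061, is shared.

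**Figure D4:**
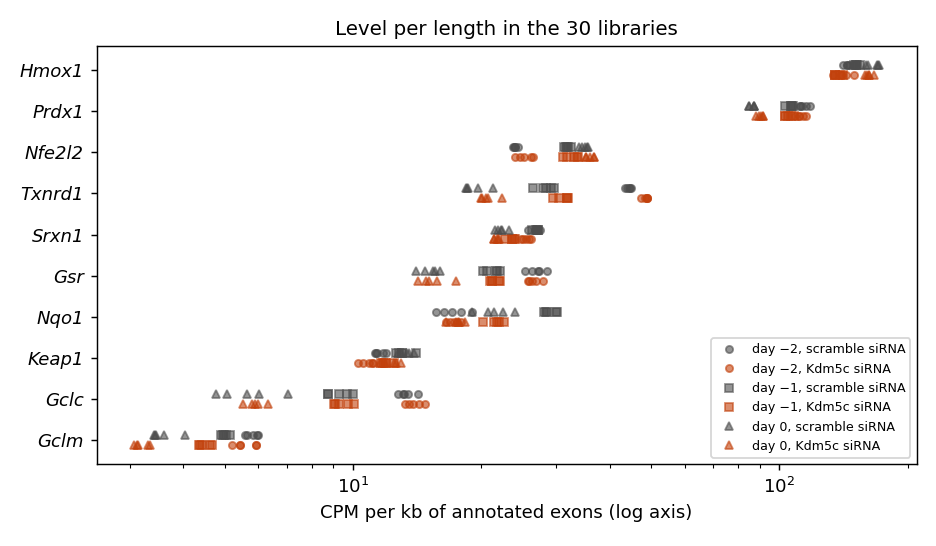
CPM per kilobase of annotated exon in each of the 30 libraries (horizontal log axis), by gene, in order of the median over the 6 groups; shape gives the day and colour the siRNA. Hmox1 and Prdx1 lie apart from the other 8 genes, and the range of Txnrd1, from 18.4 to 49.1, covers several neighbours.

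To see which genes shared these patterns, log2 CPM was correlated over the 30 libraries with 10869 genes, predicted models and pseudogenes left out. The libraries share days and siRNAs, and the coefficients are a description with no test. The most alike gene was Rrn3 for Txnrd1 (r = 0.997), Tnfrsf22 for Gclc (0.992), Ppa1 for Gsr (0.992), Ddb1 for Prdx1 (0.989), Pdha1 for Gclm (0.985) and Psrc1 for Nfe2l2 (0.984). For each of these 6 genes, between 1819 and 2590 others had an r above 0.9. Fewer genes reached an r above 0.9 with Srxn1, Hmox1, Nqo1 and Keap1, at 114, 1, 2 and 0. Their most alike genes were Tkt (0.959), Slc35c2 (0.917), Lxn (0.918) and Mkrn1 (0.898). Keap1 and Hmox1 changed little, by 0.17 and 0.16 on the log2 scale from day −2 to day 0 under scramble. A small range can lower r, and its part in these counts was not tested. Tkt encodes transketolase, an enzyme of the pentose phosphate pathway that is itself often counted among NRF2 targets. Among the 10 themselves, Gclc, Txnrd1 and Gsr were most alike, at 0.98 between Gclc and each of the others, while the best match of Nqo1 within the family was Keap1, at 0.48.

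The other genes of the pathway were taken from a list of 95 symbols in 7 functional groups, of which 82 were in the count table. With Kdm5c siRNA 8 of the 82 rose and 19 fell on day −2, 12 rose and 30 fell on day −1, and 12 rose and 26 fell on day 0. That is 32.9%, 51.2% and 46.3% of the list, beside 23%, 35.5% and 35% of all genes. Their median log2 fold changes were −0.03, −0.04 and −0.04.

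The group for NADPH supply covered 7 genes. NADPH is the reducing power that glutathione reductase, thioredoxin reductase and NQO1 draw on. Pgls, Taldo1 and Tkt encode pentose phosphate pathway enzymes that do not make NADPH themselves. Of the 7, 6 fell on day −1 and 0 rose, on a day on which 35.5% of all genes were called, 2254 up and 2014 down. Pgls, which encodes 6-phosphogluconolactonase of the pentose phosphate pathway, fell from 53.4 ± 2.86 to 40.9 ± 1.78 CPM on that day, a log2 change of −0.38 (SE 0.05, adjusted p = 2.02e-07), and by 0.37 on day −2 (SE 0.05, adjusted p = 7.86e-07). On day −2 and on day 0, 4 of the 7 fell and 0 rose, against 23% and 35% of all genes called. The median of these 7 was −0.07, −0.19 and −0.08 on the 3 days.

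The heme and iron genes fell in 6 of 9 cases on day −1, with 0 rising, against 35.5% of all genes called in either direction, and the largest difference came on day 0. Slc40a1, which encodes the iron exporter ferroportin, fell on that day from 216.7 ± 20.4 to 150.7 ± 5.92 CPM, a log2 change of −0.52 (SE 0.048, adjusted p = 1.87e-09). Under scramble it had risen from 14.4 ± 0.457 CPM on day −2 to that level, by 3.87 (SE 0.062, adjusted p = 6.1e-29), the largest rise of the list, while Tfrc, which encodes the transferrin receptor that brings iron in, fell from 218.8 ± 3.62 to 50.7 ± 5.05 CPM. On day 0, 2 of the 9 heme and iron genes rose and 3 fell with Kdm5c siRNA, against 35% of all genes called. On day −2, 0 rose and 2 fell, close to the 23% of all genes.

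Genes that conjugate, reduce or export electrophiles were mixed. On day −1, 2 of 24 rose and 10 fell, 50% of the group against 35.5% of all genes. On day 0, 5 rose and 8 fell, 54.2% against 35%. On day −2, 0 rose and 4 fell, 16.7%, which is below the 23% of all genes. Mgst2, a microsomal glutathione transferase gene of low level, rose from 2.46 ± 0.216 to 3.45 ± 0.351 CPM on day −1, a log2 change of 0.49 (SE 0.1, adjusted p = 0.000282) and from 2.25 ± 0.261 to 4.09 ± 0.336 on day 0 (0.87, SE 0.1, adjusted p = 1.06e-08). Gstm1, a cytosolic glutathione transferase gene, fell from 60.3 ± 4.29 to 47.8 ± 1.24 CPM on day −1 (−0.33, SE 0.04, adjusted p = 1.42e-08). Mgst3 fell by 0.24 on day −2, and Gstp1 rose by 0.24 on day 0.

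Of 8 genes for glutathione synthesis and supply other than the 10, 4 rose and 1 fell on day −2, 2 rose and 1 fell on day −1, and 0 rose and 1 fell on day 0. The shares called were 62.5%, 37.5% and 12.5%, against 23%, 35.5% and 35% of all genes, so the day −1 share lay near the background and the day 0 share below it. Slc7a11, which encodes the cystine carrier of the system that feeds glutathione synthesis, rose from 12.3 ± 1.42 to 17.3 ± 4.03 CPM on day −2, a log2 change of 0.50 (SE 0.13, adjusted p = 0.00778) and from 15.5 ± 2.66 to 21.5 ± 2.33 CPM on day −1 (0.47, SE 0.13, adjusted p = 0.00495). Its Kdm5c siRNA libraries reached 24.4 CPM on day −2, with the lowest at 15, above the highest scramble library at 13.6. Chac2, which encodes an enzyme that degrades glutathione, rose by 0.31 on day −2. Such breakdown genes are in the group too, so its counts do not speak for synthesis and supply alone. Slc7a11 was thus higher in the same libraries in which Nqo1 was at the scramble level on day −2 and below it on day −1.

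Of 9 genes for partners and regulators of NRF2, 3 rose and 1 fell on day −2. On day −1, 3 rose and 0 fell, and on day 0, 1 rose and 2 fell. The shares called on day −1 and day 0, 33.3% each, were near those of all genes, 35.5% and 35%, and that of day −2 was 44.4% against 23%. Bach2, which encodes a repressor of the BACH family that also pairs with small MAF proteins, rose from 6.83 ± 0.289 to 8.71 ± 0.329 CPM on day −2, a log2 change of 0.35 (SE 0.076, adjusted p = 0.000488) and by 0.38 on day −1 (SE 0.082, adjusted p = 0.000308). Maff, a small MAF gene, rose on day 0 from 5.99 ± 0.263 to 8.18 ± 0.84 CPM (0.45, SE 0.074, adjusted p = 5.21e-06).

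Among the remaining groups, 0 of 13 genes of glutathione and thioredoxin reduction rose and 4 fell on day −2, 3 rose and 4 fell on day −1, and 3 rose and 3 fell on day 0. These are 30.8%, 53.8% and 46.2% of the group, against 23%, 35.5% and 35% of all genes. Txnrd3, a thioredoxin reductase gene related to Txnrd1, fell by 0.36 on day 0, from 11.7 ± 0.685 to 9.1 ± 0.909 CPM (SE 0.065, adjusted p = 2.6e-05), while Txnrd1 rose. Of 12 peroxiredoxin, catalase, superoxide dismutase and sestrin genes, 1 rose and 3 fell on day −2, 2 rose and 3 fell on day −1, and 1 rose and 5 fell on day 0, shares of 33.3%, 41.7% and 50% against the same background. Sesn1, a sestrin gene induced by p53, was among those that fell on each day, by 0.29, 0.36 and 0.28.

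**Figure D5:**
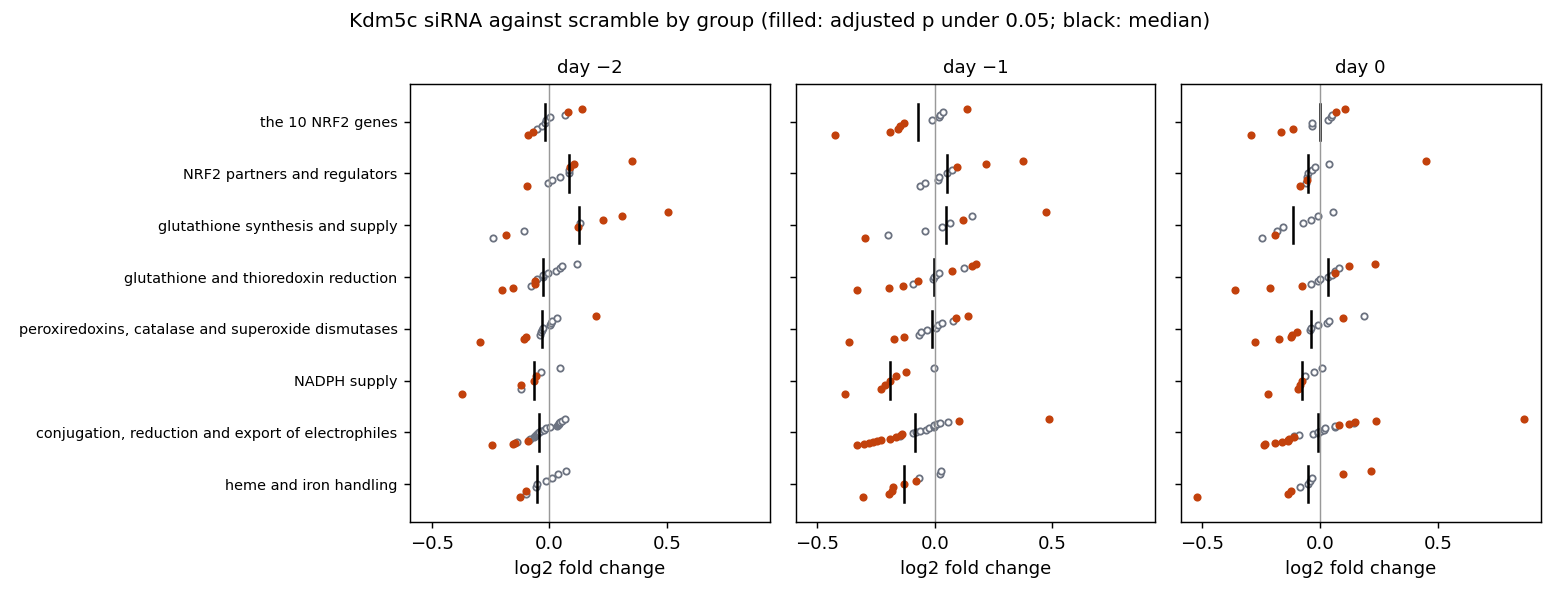
Log2 fold change of Kdm5c siRNA against scramble (horizontal axis) for the 10 NRF2 genes and the 82 measured genes of the wider list by functional group, on each day; filled points have an edgeR adjusted p under 0.05 and the black line is the median of the group. On day −1 the 7 NADPH genes all lie at or below 0, with a median of −0.19.

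Under scramble siRNA 39 of the 82 genes of the wider list rose from day −2 to day 0 and 36 fell, 91.5% against 88.2% of all genes, so the count lies near the background. Sesn3, which encodes another sestrin, rose from 43.0 ± 2.25 to 317.9 ± 18.9 CPM, a log2 change of 2.85 (SE 0.061, adjusted p = 1.08e-24), and Prdx6, which encodes a peroxiredoxin that is reduced with glutathione, fell from 207.2 ± 5.91 to 69.8 ± 3.56 CPM (−1.61, SE 0.038, adjusted p = 1.01e-28). Gstt1, a theta-class glutathione transferase gene of low level, rose by 2.13 from day −2 to day −1, from 0.898 ± 0.206 to 4.16 ± 0.499 CPM. Txnip, which encodes an inhibitor of thioredoxin, rose by 1.10 from day −1 to day 0. Txnrd1 fell over the same days.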

How the data were processed

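The authors deposited CPM, read counts scaled to the library total, and a table of counts that is named as normalized but held raw counts: reads recovered from CPM equalled them in 100.0% of values (tolerance 0.05 reads). Per the labels' protocols, the mRNA libraries were strand-specific. STAR 2.7.2a, edgeR 3.26.8 and GRCm38 are named in the submitters' processing notes; which program counted reads, and on which annotation, is not given in the sources used here. Every sample column was matched by day, siRNA and replicate.

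Quasi-likelihood models with robust dispersion and TMM scaling were fitted with edgeR 4.0.16 (R 4.3.3) to the counts of 12016 genes, with 6 group means over 30 libraries and the totals of all reads as library sizes (24 residual degrees of freedom). Tests were two-sided, adjusted by Benjamini-Hochberg over all genes of a contrast, with calls at 0.05; fold changes are log2 values. The fit was checked on data with known answers. Symbols, positions and exon lengths came from GENCODE M21 (12010 of 12016 identifiers).

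All 10 genes are named. Of the wider list, up to 3 called genes each way with the largest change are named per siRNA comparison and 2 per scramble comparison, and for each of the 10 the gene with the highest Pearson r. The genes and lists were chosen with earlier results of these data known. No consistent pairing of same-numbered libraries was seen: of 15 pairs within a day, 4 correlated above 0.1 (r −0.22 to 0.3). The highest were replicate 1 on day 0 (0.3) and on day −2 (0.21), while replicate 1 on day −1 stood at −0.04. Alternatives were other scalings, filters, DESeq2 1.42.0, limma 3.58.1 on log2(CPM + 0.1, 0.5 or 2), the libraries of a contrast only, a replicate block and each library left out. Day −1 scramble libraries 1, 2 and 3, or 4 and 5, were left out together, an alternative chosen after seeing the data.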

Additional observations from a re-analysis of the deposited data

Results flagged for a closer look

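In 60 groups of 5 CPM values, 2 held a library far from the others, where chance would give about 3. The lowest Srxn1 value with Kdm5c siRNA on day −1, replicate 5 at 64.2 CPM, lay apart from the other 4 libraries at 66.6 to 67.5. The lowest Prdx1 value with scramble on day −1, replicate 1 at 313.7 CPM, lay apart from 324.9 to 328.7 in the others.

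The siRNA effect differed between days for 4 genes by the test of the difference itself. From day −2 to day −1 the log2 effect moved by −0.43 for Nqo1, by −0.12 for Srxn1 and by −0.12 for Hmox1. From day −1 to day 0 it moved by 0.15 for Srxn1 and by 0.11 for Hmox1. From day −2 to day 0 it moved by −0.30 for Nqo1 and by 0.09 for Prdx1.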

How the results depend on the processing

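Of 2200 alternative values for 90 results on single genes, 2103 counted as the same, 83 lost a call, 2 gained one and 12 turned direction. A turn was counted only where either value was called or the shift exceeded the SE. Smaller turns of uncalled values counted as the same, such as those of Nqo1 on day −2 (−0.0273 to 0.0426). In every alternative run, 70 results counted as the same. From day −2 to day −1 under scramble, library totals and limma at pseudocounts of 0.5, 0.1 and 2 turned Hmox1 to 0.0671, 0.0672, 0.0673 and 0.0668 and Srxn1 to 0.00742, 0.00782, 0.00787 and 0.00767; these 4 settings do without TMM scaling. Without day 0 scramble replicate 1 the day −2 to day 0 change of effect of Gclc was 0.0738 (range over single libraries left out −0.069 to 0.0738), and without day 0 Kdm5c siRNA replicate 1 the day 0 effect on Gsr was −0.0119 (range −0.0119 to 0.0615).

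With no filter on low counts (32318 genes) 2 of the 10 genes were called on day −2, 1 for the change of effect from day −1 to day 0 and 1 from day −2 to day 0, beside 2430, 742 and 1696 genes in all. With the replicate block 1 was called from day −2 to day 0, beside 1824 in all. With limma at a pseudocount of 0.1, 1 was called from day −1 to day 0, beside 654 in all. Leaving out each library in turn gave 2 to 4 of the 10 called on day −2 (2293 to 2649 of all genes), 1 to 3 for the change to day −1 (301 to 558), 1 to 2 from day −1 to day 0 (598 to 857) and 1 to 2 from day −2 to day 0 (1606 to 2158). The replicate block changed no other count of the 10 by over 1.5 times; the calls it ended were those of Prdx1 from day −2 to day 0 and of Hmox1 from day −2 to day −1. The ratio of the highest to the lowest level per length was 31.0 with the longest transcript.

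Day −1 scramble libraries 4 and 5 deviated together (r = 0.13) and against libraries 1, 2 and 3 (r −0.47 to −0.36). Without 1, 2 and 3, the day −1 comparison called 3 of the 10 genes (0 rose, 3 fell) and 2555 genes in all, the change from day −2 to day −1 called 1 of the 10 and 190 in all, and that from day −1 to day 0 called 1 and 449; Gclc on day −1 turned to −0.0623, and Txnrd1 from day −1 to day 0 to 0.0247. Without 4 and 5, the change from day −2 to day −1 called 873 genes in all, and that from day −1 to day 0 called 1 of the 10. Where no cause is given, the cause was not tested. The permutation test planned for any of the 10 outside the count table was not run, since all 10 were in it. Depth limits none of the 10 genes: the lowest value was 18 CPM.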
